A study of Mus musculus with 5 samples.

Results

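PU.1 sites at most 100 bp from protein-coding gene ends are described here. They come from a list of sites called in mouse leukaemia cells after PU.1 had been restored, set against cells with low PU.1. A site was included when its summit, the base where the peak is highest, was on chromosomes 1 to 19 and at most 100 bp from the start or end coordinate of a protein-coding gene. This held for 427 of the 10920 listed sites on those chromosomes (3.91%, 95% Wilson interval 3.56 to 4.29), and for 427 of the 11111 sites in the whole list. They are called near-end sites below.

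The gene Spi1 encodes PU.1, a DNA-binding protein of the ETS family without which myeloid cells and B cells do not develop. ETS factors share the DNA core GGAA and differ in the bases they prefer on each side of it: PU.1 favours purines before the core, as in GAGGAAGT, whereas widely expressed members such as GABP and the ELK factors favour CCGGAAGT, a site common at promoters of housekeeping genes. PU.1 is known for binding enhancers far from genes as well as promoters. CpG-rich promoters are typical of housekeeping genes, and CpG-poor promoters of many genes with restricted expression.

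All cells were AML-246, an acute myeloid leukaemia that is p53-/- and carries a GFP-linked short hairpin RNA against PU.1, in spleens of leukaemic C57BL/6 recipients. The PU.1 High group (3 libraries) came from mice given doxycycline (Dox) for 2 days, which shuts the hairpin off, and the PU.1 Low group (2 libraries) from untreated mice. Chromatin was immunoprecipitated with the PU.1 antibody T-21. Libraries within a group are technical replicates by their labels, all from a single leukaemia, and need not stand for separate mice.

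The data are 1 list of summits that sets PU.1 high against PU.1 low, with 1 peak-caller score per site on a −log10 scale, the authors' own value. The list holds no value per library, so read depth is unknown, the spread over libraries cannot be shown and no difference between treated and untreated mice can be tested here. A site bound alike in both groups may be missing from such a list, so absence from it does not show absence of PU.1. This applies to genes without a near-end site and to the other promoters used for comparison below. Values below describe the listed sites, and intervals on shares are 95% Wilson intervals that cover counting error only. Genes and strands come from RefSeq (GRCm38.p6, the build called mm10), and a site was tied to a gene by distance alone.

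Short stretches of promoter sequence around 10 near-end summits are shown first. Each stretch reaches up to 60 bases to either side of the summit, as far as the RefSeq promoter table goes, which holds the 250 bases before and the 50 after an annotated start. Sequences are from RefSeq GRCm38.p6 and run 5′ to 3′ on the gene's strand. Capitals mark every ETS core, GGAA or its reverse complement TTCC.

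The first 6 are the highest-scoring near-end sites at a transcription start whose summit lay in the table's promoter of that gene. Iqgap3 encodes a scaffold protein of the IQGAP family, Psmc2 an ATPase of the proteasome's regulatory particle and Eif3d a subunit of the translation initiation factor eIF3. Phf11a encodes a PHD finger protein, Ap3m1 a subunit of the AP-3 vesicle adaptor, and Cd5 a surface receptor of T cells and some B cells. They scored 28.84, 28.07, 27.45, 26.89, 22.37 and 21.21 in that order.
Iqgap3, chr3:88081908-88082028, plus strand, summit at base 61: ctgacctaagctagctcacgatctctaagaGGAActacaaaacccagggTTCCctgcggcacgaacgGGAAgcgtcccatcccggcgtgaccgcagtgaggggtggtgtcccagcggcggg
Psmc2, chr5:21785220-21785324, plus strand, summit at base 61: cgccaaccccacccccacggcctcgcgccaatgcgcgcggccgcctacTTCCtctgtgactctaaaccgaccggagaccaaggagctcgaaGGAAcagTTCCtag
Eif3d, chr15:77970778-77970898, minus strand, summit at base 61: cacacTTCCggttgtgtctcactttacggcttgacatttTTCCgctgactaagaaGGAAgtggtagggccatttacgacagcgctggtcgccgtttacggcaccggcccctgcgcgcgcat
Phf11a, chr14:59297541-59297661, minus strand, summit at base 61: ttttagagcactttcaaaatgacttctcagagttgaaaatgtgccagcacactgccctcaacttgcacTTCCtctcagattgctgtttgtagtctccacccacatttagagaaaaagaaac
Ap3m1, chr14:21052424-21052544, minus strand, summit at base 61: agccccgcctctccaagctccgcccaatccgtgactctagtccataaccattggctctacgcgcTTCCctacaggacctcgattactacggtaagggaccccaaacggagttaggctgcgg
Cd5, chr19:10738963-10739083, minus strand, summit at base 61: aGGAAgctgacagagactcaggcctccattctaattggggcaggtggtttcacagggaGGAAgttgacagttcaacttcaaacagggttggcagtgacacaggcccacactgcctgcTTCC

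All 6 stretches hold an ETS core, and the nearest one was centred between 0.5 bp (Cd5) and 10.5 bp (Psmc2) from the summit. The PU.1 motif GAGGAAGT, on either strand, was in those of Psmc2, Phf11a and Cd5. In Cd5 it lay at the summit itself, 49 bp upstream of the promoter table's start site. Eif3d has AAGGAAGT 3.5 bp from its summit, and CCGGAAGT at the far left of its stretch, 53.5 bp away.

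The next sequence is the remaining 1 of the 4 highest-scoring promoters with the PU.1 motif (the other three, of Psmc2, Phf11a and Cd5, are above). The gene, Dennd1c, encodes a DENN-domain activator of Rab GTPases, and the site scored 16.78.
Dennd1c, chr17:57078495-57078615, minus strand, summit at base 61: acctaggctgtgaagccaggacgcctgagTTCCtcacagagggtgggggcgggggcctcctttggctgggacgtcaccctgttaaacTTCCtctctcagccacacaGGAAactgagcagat

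The last 3 belong to the 4 highest-scoring promoters that hold CCGGAAGT and lack GAGGAAGT, of which Eif3d was the first. Rpl37 encodes a protein of the large ribosomal subunit (score 16.39), Bcdin3d an RNA methyltransferase (15.98) and Zfp330 a zinc finger protein (14.86).
Rpl37, chr15:5116545-5116662, plus strand, summit at base 61: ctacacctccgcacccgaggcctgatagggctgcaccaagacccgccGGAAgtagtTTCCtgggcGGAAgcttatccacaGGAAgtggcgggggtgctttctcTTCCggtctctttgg
Bcdin3d, chr15:99474681-99474780, minus strand, summit at base 61: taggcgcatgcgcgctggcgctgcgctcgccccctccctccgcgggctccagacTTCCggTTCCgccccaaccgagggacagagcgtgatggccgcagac
Zfp330, chr8:82774146-82774266, minus strand, summit at base 61: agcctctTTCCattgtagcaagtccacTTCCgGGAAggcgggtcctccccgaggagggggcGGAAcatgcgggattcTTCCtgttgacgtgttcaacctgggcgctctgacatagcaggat

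In Bcdin3d the CCGGAAGT match was centred 4.50 bp from the summit, and in Rpl37 11.5 bp away. Rpl37 has 5 cores in this stretch, and the nearest, CAGGAAAC, was centred 2.50 bp from its summit. The Dennd1c motif lay 28.5 bp from the summit, the farthest of these PU.1 motifs.

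Near-end sites were almost all at transcription starts. The promoter table gave a strand for the nearest gene of 336 of the 427 sites, and 322 of these (95.8%, 93.1 to 97.5) were nearest to the start of transcription and 14 (4.17%) to its end. Among sites 100 bp to 1 kb from a gene end, 504 of 658 with a strand (76.6%, 73.2 to 79.7) were nearest to a start, and among sites 1 to 10 kb away 1603 of 2561 (62.6%, 60.7 to 64.4). The intervals of these distance classes do not overlap. For the other 91 near-end sites the strand was not available in that table.

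**Figure D1:**
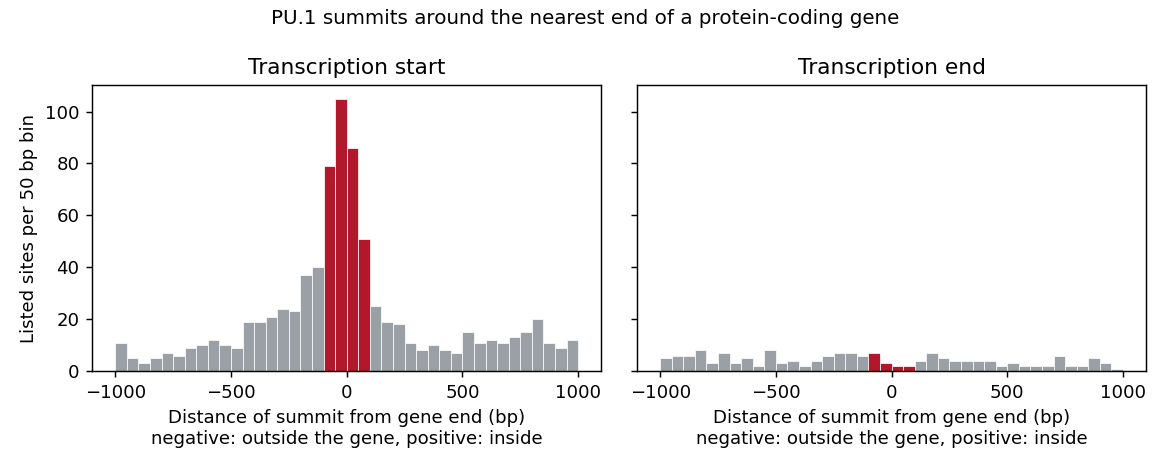
Number of listed PU.1 summits per 50 bp bin (y axis) against the distance of the summit from the nearest end of a protein-coding gene in bp (x axis, negative outside the gene and positive inside), for transcription starts (left) and transcription ends (right); red bars lie within 100 bp. Counts peak at the start, with 105 sites in the 50 bp just outside it, and show no such peak at transcription ends, where no bin exceeds 8 sites.

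The crowding at starts was steep. Within 25 bp of a start there were 40.8 sites per 10 bp of distance, against 20 at 76 to 100 bp, 12 at 101 to 200 bp and 4.14 at 501 to 1000 bp. At transcription ends the same classes held 1.54, 0.800, 2.40 and 1.62 sites per 10 bp, so sites were no denser next to the end than farther out. Each gene has 1 start and 1 end, so both kinds of end were equally frequent. Of the 427 near-end sites, 149 (34.9%, 30.5 to 39.5) were within 25 bp, 259 (60.7%, 55.9 to 65.2) within 50 bp and 3 at the annotated end itself.

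Summits lay somewhat more often outside the gene than inside it. Of the 427 sites, 251 (58.8%, 54.1 to 63.4) were outside and 176 (41.2%, 36.6 to 45.9) inside the gene of the nearest end. Among the 322 at starts, 138 (42.9%) were inside. For 269 sites the summit fell in a promoter of the table that belonged to the nearest gene, and these are called bound promoters below. Their median summit position was 31 bp upstream of the table's start site, with 201 upstream, 66 downstream and 2 on it, in windows that reach much farther upstream than downstream.

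The 14 sites at transcription ends included Ccl17, a chemokine gene (score 17.78, 80 bp inside its end), Rabif, a Rab-interacting factor gene (14.44, 66 bp beyond its end), LOC115486880 (14.21), and Snrnp35, a minor spliceosome protein gene (14.21, 62 bp beyond). Of the 14, 2 had a start of another gene within 1 kb. The site at LOC115486880 was 46 bp from a start of Psme3ip1, so its proximity to a transcription end does not separate it from a promoter. The other was at Gsto1, 693 bp from a start of Gsto2. The median score of the 14 was 10.09, but its interval of 4.35 to 14.21 spans that of the 322 sites at starts (7.59, 7.29 to 8.24).

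Near the 100 bp limit, the sites just inside were at Trim27 (score 11), Cers6 (10.68), Ddx54 (3.68) and Ippk (3.48), each 100 bp from the gene end. The sites just outside were at Abl1 (11.83) and Vps29 (5.73), both at 101 bp, and Mmp2 (16.37) and Tmem33 (5.97), both at 102 bp. Scores on both sides of the limit cover a similar range.

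The highest-scoring near-end sites covered genes of very different kinds. The top site scored 30.79, on chromosome 12 at position 73901353, and lay 29 bp inside Hif1a (chromosome 12, 73901324 to 73947554), the gene of the oxygen-regulated subunit of hypoxia-inducible factor. Iqgap3, Psmc2, Eif3d and Phf11a followed. Next came Irgc1 (25.88), an immunity-related GTPase gene, and Gbp9 (25.73), a gene of the interferon-inducible guanylate-binding proteins. Sites at Ap3m1 (22.37), A630001G21Rik (21.74), Luc7l (21.21), a splicing factor gene whose annotated end fell on the summit base, and Cd5 (21.21) completed the 11 that scored at least 20.

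Lower in the top 25 were sites at Cebpz and Slc35b4, a nucleotide sugar transporter gene (both 19.12), Ms4a6c (18.57), Lrrc25 and Ccl17 (both 17.78), and Prdx3, the gene of a mitochondrial peroxiredoxin (17.73). Cd300c2, of the CD300 receptor family, scored 17.02. Pip5k1c, a phosphoinositide kinase gene, and Dennd1c both scored 16.78, and Gapt, the gene of a Grb2-binding adaptor of B cells, 16.74. Hddc3 and the homeobox gene Pbx4 scored 16.63 each, the telomere helicase gene Rtel1 16.6, and Adss, a purine synthesis gene, 16.55. The lowest scores were at Hat1 (1.32), Dnpep, Pram1 and Gars (each 1.44) and Eny2 (1.5), just above 1.3, the −log10 of 0.05.

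Scores of near-end sites were lower than those of the rest of the list, but overlapped them widely. The median was 7.63 (binomial order-statistic interval 7.29 to 8.22; quartiles 4.99 and 10.4) for the 427 near-end sites and 8.64 (8.40 to 8.65; quartiles 5.78 and 11.93) for the other 10493, a difference of -1.01. A score of at least 10 was reached by 123 near-end sites (28.8%, 24.7 to 33.3), where 37.5% of all listed autosomal sites reached it. Sites 100 bp to 1 kb from a gene end had a median of 7.84 (7.48 to 8.35), and 33.3% (30.1 to 36.5) scored at least 10. Both intervals overlap those of the near-end sites, so the lower scores were not shown to be particular to the first 100 bp. Overlap does not show that the classes are equal. Within the 100 bp, scores showed no trend with distance: the medians were 7.42, 8, 7.68 and 7.76 in the classes 0 to 25, 26 to 50, 51 to 75 and 76 to 100 bp, with overlapping intervals. Scores grow with read depth as well as with enrichment, and whether near-end sites already had PU.1 bound before treatment cannot be read from it.

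**Figure D2:**
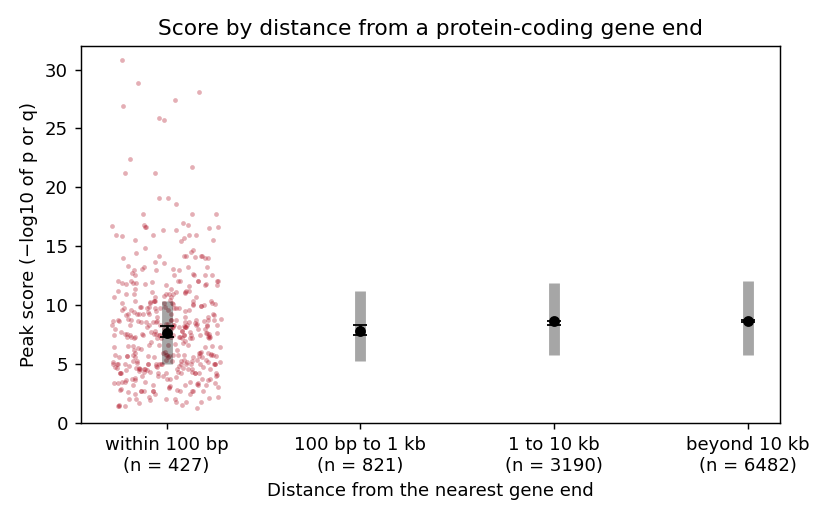
Peak score (y axis, −log10 of p or q) by distance of the site from the nearest protein-coding gene end (x axis). Red points are the single near-end sites, grey bars run from the lower to the upper quartile, and black points with bars are medians with 95% order-statistic intervals; single sites are not drawn for the other classes. The median is 7.63 within 100 bp, 7.84 at 100 bp to 1 kb and 8.64 beyond 10 kb, with quartile ranges that overlap.

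Near-end sites had fewer neighbours in the list than the pool of all other sites. Another listed site lay within 10 kb of 102 of the 427 (23.9%, 20.1 to 28.2), against 3550 of the other 10493 sites (33.8%, 32.9 to 34.7). For sites 100 bp to 1 kb from a gene end the share was 30.7% (27.6 to 33.9). This interval overlaps that of the near-end sites only at its lower edge. The lower share was thus not shown to be particular to the first 100 bp, nor were the shares shown to be equal. With a 200 bp limit it was 23.7%. The intervals at 1 to 10 kb (35.2%, 33.6 to 36.9) and beyond 10 kb (33.6%, 32.4 to 34.7) lie above that of the near-end sites. Where a neighbour existed, it outscored the near-end site in 60 of 102 cases (58.8%, 49.1 to 67.9), and the same held for 1967 of 3550 other sites (55.4%, 53.8 to 57.0), so the intervals overlap. Among the largest gaps, Tespa1 had 14.19 at its near-end site and 26.45 at a site 3.90 kb away. At Ptger2, a prostaglandin receptor gene, the near-end site scored 4.34 and a site 1.65 kb away 22.37. Lyn, a Src family kinase gene, had 9.76 at its near-end site and 20.3 at the higher of 2 neighbours. These 3 genes were named after their values were seen.

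A near-end site was found at 450 of 20665 protein-coding genes (2.18%), more genes than sites because 23 sites lay within 100 bp of 2 genes. No gene had 2 near-end sites. Of the 450 genes, 172 (38.2%, 33.9 to 42.8) also had a listed site of another class in the gene or within 10 kb of it, against 5264 of 20215 other genes (26%, 25.4 to 26.6). The excess was present among short genes (26.9% against 13.6%), genes of middle length (33.0% against 24.6%) and long genes (55.5% against 39.9%), with genes cut into equal classes by length. Median gene length was 17.9 kb for genes with a near-end site and 17.5 kb for the others.

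Each of the 23 shared sites lay at the ends of neighbouring genes. Among the highest were those at Psmc2 and Dnajc2 (28.07), Ap3m1 and Adk (22.37), Cebpz and Ndufaf7 (19.12), Rpl37 and Card6 (16.39), and Eif2a and Serp1 (11.74). Adk encodes adenosine kinase and Eif2a a translation initiation factor. For such a pair the site cannot be given to either gene. The median score of the 23 was 7.86 (5.91 to 11.34), against 7.62 for the 404 sites with a single gene. Of all 427 near-end sites, the 23 included, 15 (3.51%, 2.14 to 5.71) lay within 100 bp of an end of a gene of another biotype, 14 of them lncRNA genes. Of the other 10493 sites 112 did so (1.07%, 0.888 to 1.28).

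By chromosome, near-end sites numbered from 0.940 per 100 protein-coding genes on chromosome 14 (8 sites) to 3.35 on chromosome 15 (26 sites). As a share of the chromosome's listed sites they ranged from 1.91% on chromosome 14 to 6.84% on chromosome 7 (44 sites).

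Genes of the protein synthesis and turnover machinery carried near-end sites several times as often as the 2.18% of all genes. The shares were 10 of 80 cytosolic ribosomal protein genes (12.5%, 6.93 to 21.5), 6 of 47 proteasome genes (12.8%, 5.98 to 25.2), 7 of 55 spliceosome genes (12.7%, 6.30 to 24.0) and 6 of 52 translation initiation factor genes (11.5%, 5.40 to 23). RNA helicases of the Ddx and Dhx families had 5 of 51 (9.80%, 4.26 to 21) and respiratory complex I 3 of 35 (8.57%, 2.96 to 22.4). These intervals all lie above 2.18%. Mitochondrial ribosomal proteins (3 of 78), tRNA synthetases (2 of 34), Mediator (1 of 28), RNA polymerase subunits (1 of 28) and ubiquitin-conjugating enzymes (1 of 30) had shares of 3.33% to 5.88%, with intervals that include 2.18%.

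**Figure D3:**
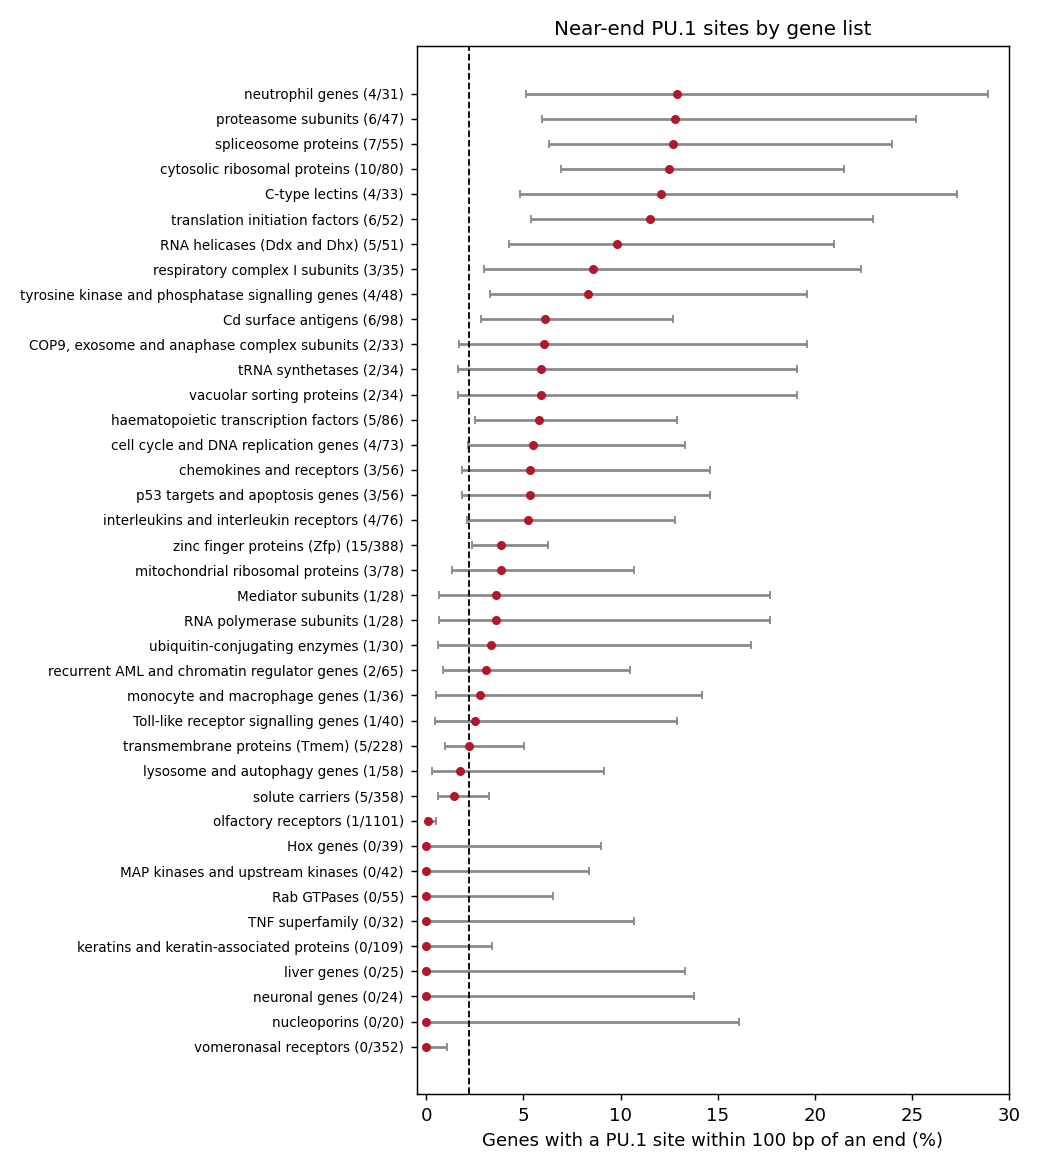
Share of genes in each list with a PU.1 site within 100 bp of a gene end (x axis, percent; points, with 95% Wilson intervals as bars), for 39 gene lists (y axis, with the number of genes that had a site over the number in the list). The dashed line is the 2.18% of all protein-coding genes; ribosomal, proteasome, spliceosome and neutrophil lists stand between 12.5% and 12.9%, and olfactory receptors at 0.0908%.

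Among ribosomal protein genes the highest score was at Rpl37 (16.39), followed by Rpl28 (9.75) and Rpl21 (9.16), and the lowest at Rpl37a (2.75), with a median of 7.58. Proteasome genes were led by Psmc2 (28.07), Psmd3 (12.58) and Psmd13 (9.24). In the spliceosome list, Sf3b1, which encodes a branch-point recognition factor that is recurrently mutated in myeloid disease, scored 16.37, Srsf10 15.98 and Snrnp35 14.21. The initiation factors Eif3d (27.45), Eif4h (12.02) and Eif2a (11.74) had the highest of their list. Scores in these lists thus ran over most of the range of near-end sites. The sites at Rpl37, Psmc2, Psmd13 and Eif2a also lay within 100 bp of a neighbouring gene and count for each gene, so they cannot be given to the list gene alone. The site at Snrnp35 lay at its transcription end.

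Immune gene lists differed among themselves. Neutrophil genes had near-end sites in 4 of 31 cases (12.9%, 5.13 to 28.9): Itgb2l (14.72), a leukocyte integrin subunit gene, Pglyrp1 (13.07), the gene of a granule protein that binds peptidoglycan, Chil3 (9.24), a chitinase-like protein gene, and Ly6g (4.99), the gene of a neutrophil surface antigen. C-type lectins had 4 of 33 (12.1%, 4.82 to 27.3), namely Clec16a (11.74), Clec4a3 (9.96), Clec7a (6.61), which encodes the beta-glucan receptor dectin-1, and Clec4n (2.76). The list was drawn by symbol pattern, so Clec16a belongs to it by name only. The intervals of these lists, of the 2 that follow and of the transcription factors lie above 2.18%.

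Tyrosine kinase and phosphatase signalling genes had 4 of 48 (8.33%, 3.29 to 19.6). They were Blnk (15.96), a B cell adaptor gene, Tyrobp (10.3), which encodes the adaptor DAP12, Lyn (9.76) and the ubiquitin ligase gene Cblb (6.59). Cd surface antigens had 6 of 98 (6.12%, 2.84 to 12.7), led by Cd5 (21.21), Cd300c2 (17.02) and Cd52 (12.09). Haematopoietic transcription factors had 5 of 86 (5.81%, 2.51 to 12.9), among them Nfe2l2 (11), Ikzf3 (5.38), Junb (3.15) and Gabpa (1.97), the last encoding the DNA-binding subunit of GABP. Spi1 was in this list and had no near-end site.

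Interleukins and their receptors had 4 of 76, with Il7r (11.12), Il1a (8.35) and Il12rb2 (5.02) highest, and chemokines and receptors 3 of 56 (Ccl17, Cxcl16 at 5.59 and Ccl9 at 5.26). Cell cycle genes had 4 of 73, led by the spindle checkpoint gene Mad2l1 (9.30), Wee1 (7.99) and Rrm1 (6.07). Targets of p53 and apoptosis genes had 3 of 56, Aen (6.51), Btg2 (4.74) and Ccng1 (4.71). The AML and chromatin list had 2 of 65, Sf3b1 and the receptor kinase gene Flt3 (12.74). The intervals of these 5 lists include 2.18%.

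The monocyte and macrophage list had a near-end site in 1 of 36 genes (2.78%, 0.492 to 14.2), Clec7a, although 22 of the 36 (61.1%) had a listed site within 10 kb of an end. Toll-like receptor signalling genes had 1 of 40, Unc93b1 (8.35), with 25 (62.5%) within 10 kb, and lysosome and autophagy genes 1 of 58, Tfeb (3.68), with 30 (51.7%) within 10 kb. Of all protein-coding genes, 4757 (23.0%) had a site within 10 kb, and 9.46% of those had it within 100 bp.

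The 9 lists of gene expression and protein turnover machinery, pooled after their counts were seen, had near-end sites at 41 of 453 genes (9.05%, 6.74 to 12) and a site within 10 kb at 137. Thus 29.9% (22.9 to 38.1) of their genes with a site within 10 kb had one within 100 bp. The 9 immune lists, pooled likewise, had near-end sites at 26 of 436 genes (5.96%, 4.10 to 8.59) and a site within 10 kb at 217, and here the fraction within 100 bp was 12% (8.31 to 17.0). The intervals of the fractions of both pools do not overlap.

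Several families had few near-end sites or none. Olfactory receptors had 1 of 1101 (0.0908%, 0.0160 to 0.513), Olfr715 with a score of 4.35 at its transcription end. Vomeronasal receptors (0 of 352, upper bound 1.08%) had an upper bound under the 2.18% of all genes. For keratins (0 of 109), Rab GTPases (0 of 55), MAP kinases (0 of 42), Hox genes (0 of 39), the TNF superfamily (0 of 32), liver genes (0 of 25), neuronal genes (0 of 24) and nucleoporins (0 of 20) the upper bounds of 3.40% to 16.1% include it. Transmembrane proteins named Tmem (5 of 228), solute carriers (5 of 358), vacuolar sorting proteins (2 of 34) and subunits of the COP9, exosome and anaphase complexes (2 of 33) had intervals that include 2.18%. For zinc finger genes named Zfp (15 of 388, 3.87%, 2.36 to 6.28), led by Zfp330 (14.86), Zfp438 (11.93) and Zfp444 (8), the interval lies just above it. Zfp646 and Zfp668 in this list share the same site (3.04), which counts for each of them, so the small gap to 2.18% is not firm.

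The promoters under near-end summits were rich in ETS sites, and these were centred on the summit. All 269 bound promoters held the core GGAA on either strand, as did 95.6% of all 20063 promoters of protein-coding genes in the table, so presence alone says little. Position says more: in 242 of the 269 (90.0%, 85.8 to 93.0) a core was centred within 20 bp of the summit, whereas 36.8% of the other 19794 promoters had a core within 20 bp of the same promoter positions. Core matches fell to 12.8 per 1000 positions at 76 to 100 bp from the summit, against 42.9 within 10 bp.

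**Figure D4:**
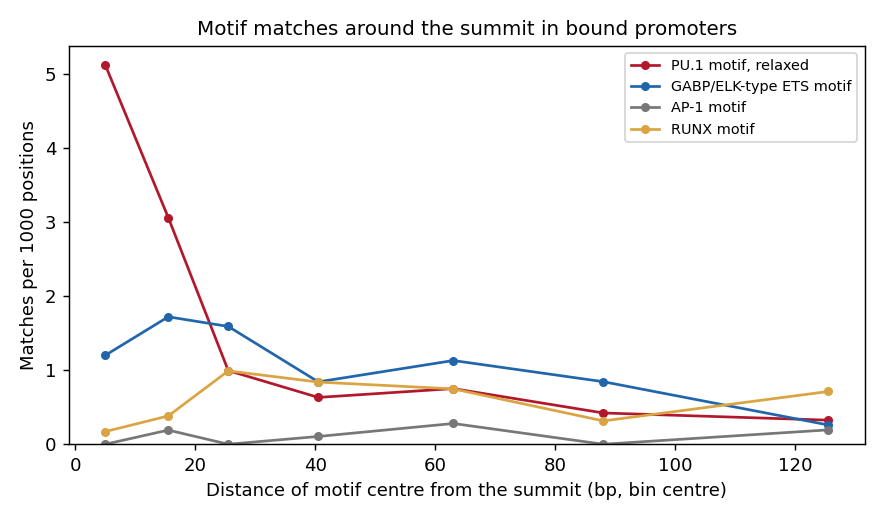
Motif matches per 1000 searched positions (y axis) against the distance of the motif centre from the summit in bp (x axis, plotted at the centre of each distance bin), for 4 motifs in the 269 bound promoters. The relaxed PU.1 motif, GNGGAAGT, stands at 5.12 within 10 bp of the summit and at 0.325 beyond 100 bp. It admits any base before the core, C included, so its peak is not that of purine-flanked sites alone. The AP-1 and RUNX motifs do not peak at the summit.

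The bases beside the core differed as well. For the core nearest to each summit, A stood before it in 113 of 269 (42.0%, 36.3 to 48.0) and C in 90 (33.5%, 28.1 to 39.3), against 32.2% and 16.3% of 67584 cores in the other promoters. G stood there in 52 (19.3%, 15.1 to 24.5), against 29.7%, and T in 14 (5.20%, 3.13 to 8.55), against 21.8%. A and G together, the purines, made up 61.3% (55.4 to 67), against 61.9%, so A was more frequent before the core but purines as a class were not. GT followed the core in 95 (35.3%, 29.8 to 41.2), against 8.66%. This look at flanks was chosen after the motif shares were seen.

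Of 18 motifs searched on both strands, the 4 with the highest ratio to the other promoters were all ETS motifs: the ETS-IRF composite (3.76), CCGGAAGT (3.49), GNGGAAGT (3.22) and GAGGAAGT (2.62). The PU.1 motif GAGGAAGT was in 22 bound promoters (8.18%, 5.46 to 12.1), against 3.12% of the others and 3.18% of all promoters. Its relaxed form GNGGAAGT, which contains it, was in 67 (24.9%, 20.1 to 30.4), against 7.72% of the others and 7.95% of all. The relaxed form admits any base before the core, so it also counts GCGGAAGT, with the C that CCGGAAGT has there. At Snrpc, Eapp, Junb and Riok2, for example, the core nearest to the summit read GCGGAAGT. The share of GNGGAAGT is therefore not one of purine-flanked PU.1 sites alone. The shorter AGGAAG, which overlaps GAGGAAGT, was in 169 (62.8%, 56.9 to 68.4), against 33.5% of the others and 33.8% of all. CCGGAAGT was in 48 (17.8%, 13.7 to 22.9), against 5.11% of the others and 5.28% of all, and 4 bound promoters held both GAGGAAGT and CCGGAAGT. Neither GNGGAAGT nor CCGGAAGT was present in 168 of the 269.

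**Figure D5:**
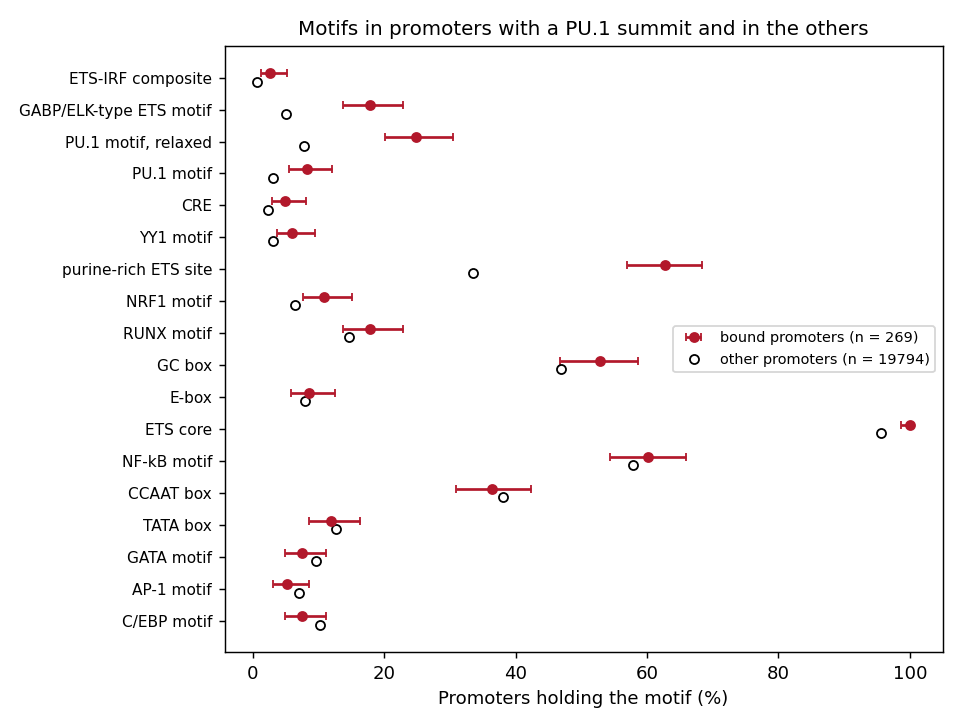
Share of promoters that hold each of 18 motifs on either strand (x axis, percent), for the 269 promoters with a near-end PU.1 summit (red, with 95% Wilson intervals) and the 19794 other promoters of protein-coding genes (open circles). The motifs (y axis) are ordered by the ratio of the 2 shares. GNGGAAGT is labelled the relaxed PU.1 motif, admits any base before the core and stands at 24.9% against 7.72%.

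The PU.1 motif was tied to the summit more closely than CCGGAAGT. GAGGAAGT was centred within 20 bp of the summit in 18 of the 22 promoters that held it, and 6.69% of bound promoters had it there, against 0.487% of the others at the same positions, a ratio of 13.8. CCGGAAGT was that close in 16 of 48, which is 5.95% against 1.20%, a ratio of 4.96. Median distances from the summit were 8.5 bp for GAGGAAGT and 31 bp for CCGGAAGT. The ETS-IRF composite, where PU.1 binds next to IRF4 or IRF8, was in 7 bound promoters (2.60%, 1.27 to 5.27), against 0.692% of the others and 0.718% of all. They were those of Irgm2, Ogfr, Bod1l, Clec7a, Slc37a2, Hif1an and Bank1, and in 3 of them, Irgm2, Slc37a2 and Bank1, the composite lay within 20 bp of the summit.

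Motifs of other factors were near the level of the other promoters. The RUNX motif TGTGGT was in 17.8% of bound promoters against 14.7% of the others, and the AP-1 motif TGANTCA in 5.20% against 7.08%. For the C/EBP motif TTGCNNAA the shares were 7.43% and 10.3%, for the GATA motif AGATAA 7.43% and 9.60%, and for the MYC-type E-box CACGTG 8.55% and 7.88%. Their shares of all promoters were 14.8%, 7.06%, 10.3%, 9.57% and 7.89% in that order. The GC box (GGGCGG) was in 52.8% against 46.9%, the CCAAT box in 36.4% against 38.1%, the TATA box (TATAAA) in 11.9% against 12.7% and the loose NF-kB motif in 60.2% against 57.8%. Their shares of all promoters were 47%, 38.1%, 12.7% and 57.9% in that order. For each of these 9 motifs the interval of the bound share includes the share of the others. The cyclic AMP response element TGACGTCA (4.83%, 2.85 to 8.09, against 2.27%), the YY1 motif AAGATGGC (5.95%, 3.69 to 9.44, against 3.02%) and the NRF1 motif (10.8%, 7.61 to 15.1, against 6.49%) had intervals above the others' share, and their shares of all promoters were 2.30%, 3.06% and 6.54%.

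Bound promoters were more often CpG-rich. The CpG ratio, observed over expected from the C and G content, exceeded 0.6 in 180 of 269 (66.9%), against 48.7% of the others, while the median GC content was 57.3% and 57.0%. The promoter table holds promoters of expressed and silent genes alike, and expression was not measured here, so the part of expression in this difference was not tested.

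The excess of GAGGAAGT over other promoters of the same CpG class stood at a ratio of 4.92 in CpG-poor and 1.20 in CpG-rich bound promoters. That of CCGGAAGT stood at 2.92 and 2.75, the first of these resting on only 4 promoters. CCGGAAGT holds a CpG that counts toward the ratio used for the split, so its shares are to be read within a class. In the 180 CpG-rich ones, CCGGAAGT was present in 44 (24.4%, 18.7 to 31.2), against 8.88% of other CpG-rich promoters, and GAGGAAGT in 5 (2.78%, 1.19 to 6.34), against 2.32%. In the 89 CpG-poor ones, GAGGAAGT was present in 17 (19.1%, 12.3 to 28.5), against 3.88% of other CpG-poor promoters, and CCGGAAGT in 4 (4.49%, 1.76 to 11), against 1.54%. The relaxed form GNGGAAGT was above the others in both classes, with 23.3% against 8.28% in CpG-rich and 28.1% against 7.20% in CpG-poor promoters. In the CpG-rich class 42 bound promoters held it and only 5 held GAGGAAGT. Most matches there thus had a base other than A before the core, among them GCGGAAGT at Snrpc and Eapp. The CpG-rich share of GNGGAAGT is therefore no measure of the full PU.1 motif. With promoters split by GC content instead, into low, middle and high classes, the ratios were 6.77, 2.64 and 3.38 for CCGGAAGT. For GAGGAAGT they were 3.70, 2.43 and 1.26. The CpG split was chosen after the motif shares were seen.

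The base before the core nearest to the summit was also set against cores of the same CpG class. C stood before it in 86 of 180 CpG-rich promoters (47.8%, 40.6 to 55.0), against 28.1% of cores in other CpG-rich promoters, and A in 53 (29.4%, 23.3 to 36.5), against 24.5%. In CpG-poor promoters A stood before it in 60 of 89 (67.4%, 57.1 to 76.3), against 38.8%, and C in 4 (4.49%, 1.76 to 11), against 6.23%. GT after the core was equally frequent in both, 36.1% against 9.91% in CpG-rich and 33.7% against 7.59% in CpG-poor promoters. A CpG before the core counts toward the CpG ratio, so the C shares are to be read against the other promoters of the same class.

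CpG-poor bound promoters had a median score of 8.35 (7.35 to 9.75) and CpG-rich ones 7.29 (6.48 to 7.81), so the intervals overlap. Another listed site lay within 10 kb of 27 of the 89 (30.3%, 21.8 to 40.5) and of 33 of the 180 (18.3%, 13.4 to 24.6). The 10 highest-scoring CpG-poor promoters were those of Phf11a, Cd5, Ms4a6c, Dennd1c, Gapt, Blnk, Cradd, Itgb2l, P2ry13, a purinergic receptor gene, and Wfdc17, and the core nearest to the summit read GAGGAAGT in 5 of them (Phf11a, Cd5, Dennd1c, Gapt and Itgb2l). The 10 highest CpG-rich ones were those of Iqgap3, Psmc2, Eif3d, Ap3m1, Prdx3, Pip5k1c, Pbx4, Hddc3, Rtel1 and Adss, with GAGGAAGT nearest to the summit in Psmc2 alone.

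Bound promoters of the pooled gene lists fell largely into 1 CpG class each. Of the 27 bound promoters of gene expression and protein turnover genes, 25 were CpG-rich and 2 (Mrpl34 and Mrps9, both of mitochondrial ribosomal proteins) CpG-poor. Of the 13 bound promoters of immune list genes, 1 (Clec16a, listed by name only) was CpG-rich and 12 CpG-poor, among them Cd5, Blnk, Itgb2l, Pglyrp1, Il7r and Ly6g. Among the other promoters of the same lists, 348 of 406 (85.7%, 82 to 88.8) were CpG-rich for the gene expression and protein turnover genes, and 84 of 391 (21.5%, 17.7 to 25.8) for the immune genes. The intervals for the bound promoters, 76.6% to 97.9% and 1.37% to 33.3%, include these shares. The bound promoters were thus not shown to stand apart in CpG class from the other promoters of their own lists. GAGGAAGT was present in 2 of the 27 and in 3 of the 13 (Cd5, Itgb2l and Ly6g), and CCGGAAGT in 10 of the 27 and 0 of the 13. Among all CpG-rich and CpG-poor bound promoters, the shares were 2.78% and 19.1% for GAGGAAGT and 24.4% and 4.49% for CCGGAAGT. Motif shares of the other promoters of these lists are not given here, so whether the counts depart from their own lists or CpG classes was not tested.

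Score intervals of promoters with and without a motif overlapped or met. Promoters with AGGAAG had a median score of 8.24 (7.51 to 8.72) and those without it 6.46 (5.78 to 7.51). The median was 9.79 (4.99 to 14.72) for the 22 promoters with GAGGAAGT and 7.51 (7.21 to 8.19) for the 247 without, and 7.49 (5.59 to 8.35) for the 48 with CCGGAAGT and 7.59 (7.23 to 8.35) for the 221 without. The 22 promoters with GAGGAAGT ranged from Psmc2 (28.07) through Phf11b (11.17), Acer3 (10.22) and Hnrnpf (9.75) down to Eif4a3 (3.27), Traf3ip3 (2.50) and Gabpa (1.97), so a full PU.1 motif was found at high and at low scores.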

How the data were processed

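ChIP-seq for PU.1 was done on AML-246 leukaemia cells, with 3 PU.1 High (2 days of Dox) and 2 PU.1 Low (untreated) libraries. The tools and the build, per the submitters' processing notes, were CASAVA 1.8.2, MACS2 and mm10. Settings of MACS2, the aligner, read filters and the pooling of libraries: not given in the sources used here. Each summit has 1 deposited value, a −log10 score of a p or q value, and the files do not say which. Read depth is unknown.

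Summit position was taken as the BED start plus 1, and the distance as that to the nearer gene coordinate. RefSeq GRCm38.p6 tables gave gene ends (20665 protein-coding genes, chromosomes 1 to 19) and promoters with strand (16457 of them, 79.6%). A gene without a promoter there has no strand here. Promoters with identical coordinates were counted once, leaving 20063. Motifs were searched on both strands, overlaps allowed; the CCAAT box was searched as CCAAT, and the ETS-IRF, NRF1 and NF-kB motifs by patterns of 10 letters. Of 570 entries in 11 symbol lists, 542 were matched on chromosomes 1 to 19; 28 lists were symbol patterns.

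Intervals are Wilson or binomial order-statistic intervals at 95%. No test was run, since no value per library exists and sites are not replicates. Members and lists were chosen with earlier results of these data known. Genes named are the 25 highest and 5 lowest scores, the sites next to the limit, the highest shared sites and transcription ends, up to 3 genes per list and the 4 highest of each motif group; 2 genes that this names are not reported here. Other genes named, the pooled lists, the CpG classes, the core flanks and the counts within 20 bp were chosen after values were seen. Placement and motif search were tested on simulated data: 300 of 300 sites and 200 of 200 motifs were recovered. Python 3.11.15, pandas 2.3.3, numpy 2.4.6, scipy 1.17.1 and matplotlib 3.10.9 were used.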

Additional observations from a re-analysis of the deposited data

Results flagged for a closer look

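Chromosome X was outside the comparisons only because the sites were chosen on chromosomes 1 to 19, and its sites are given here for that reason, not because their number stands out. Of its 186 listed sites, 10 lay within 100 bp of a protein-coding gene end (5.38%, 2.95 to 9.61). They were at Pbdc1 (score 15.67), Mageh1 (12.74), Was (11), Thoc2 (8), Rpl36a (7.75), Bclaf3 (6.57), Emd (6.07), Eif2s3x (5.71), Prps1 (4.62) and Gm6377 (1.97), all nearest to a transcription start. Was encodes the Wiskott-Aldrich syndrome protein of blood cells, and Rpl36a and Eif2s3x belong to the translation machinery. Per 100 protein-coding genes this is 1.04 on chromosome X, against 2.07 on the autosomes.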

How the results depend on the processing

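With a 50 bp limit, 259 sites (2.37% of all) at 265 genes remained, and 1.64% of list genes had a site in place of 2.82%. With a 200 bp limit the share of all sites was 5.56%, that of list genes 3.73%, and 92.1% of sites were nearest to a transcription start in place of 95.8%. Among sites scoring at least 10, 123 (3.01%) lay within 100 bp, at 130 genes (0.736% of list genes), with a median score of 12.66, 92.9% nearest to a start and 15.4% with another site within 10 kb; the PU.1 motif was in 13.5% of their promoters in place of 8.18%. Counting ends of genes of all biotypes gave 4.94% of sites. The cause of these shifts was not tested. Of 73 values under 7 alternatives, 57 stayed within the interval, or within 1.5 times for counts, of the value reported, and the median score difference of -1.01 kept its sign under the 6 for which it was computed, from -1.16 to -0.56, the last among sites scoring at least 10. Adding chromosome X, counting sites within 500 bp once and counting motifs only within 75 bp of the summit moved no value beyond that. The share scoring at least 10 was not computed for sites scoring at least 10. No paired analysis was possible because each site has a single score for all libraries, and for the same reason no library was left out.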
